A study of Mus musculus with 2 samples.

Results

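The genes described here are 10 regulators of entry into and exit from the cell cycle in G1. They comprise the 3 D cyclin genes Ccnd1, Ccnd2 and Ccnd3, the 4 Ink4 inhibitor genes Cdkn2a, Cdkn2b, Cdkn2c and Cdkn2d, the p27 inhibitor gene Cdkn1b, and the pocket protein genes Rb1 and Rbl2. They were listed by name, with earlier results of these data known, and all 10 were found among 22180 genes with a value. The study asked, per its title, how FGF18 signalling in the resting hair cycle bears on the radioresistance of follicles. The data are 2 arrays of whole dorsal skin from male BALB/cAJcl mice aged 7 weeks, 1 labelled as the FGF18 test and 1 as the saline control. For FGF18, the skin had been depilated to start the growth phase of the follicles, 100 µg of the protein was injected intraperitoneally 6 days later (vehicle saline, with 5 µg/µl heparin), γ-rays at 6 Gy to the whole body followed after 24 h, and the skin was taken 4 h after irradiation. The sources used here do not say whether the saline animals received heparin or radiation, nor how many mice gave each array. Depilation and the times of treatment and sampling are likewise given for the FGF18 sample only. Effects of FGF18, radiation, heparin, depilation and the individual animals therefore cannot be told apart.

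In G1, D cyclins join the kinases Cdk4 and Cdk6, and these complexes phosphorylate the pocket proteins, which otherwise hold E2F transcription factors inactive. Ink4 proteins bind Cdk4 and Cdk6 and keep D cyclins from activating them, while p27 acts mainly on Cdk2 with cyclin E or A. In anagen skin, dividing cells lie mainly in the hair matrix at the base of the follicle and in the basal layer, whereas follicle stem cells are mostly quiescent.

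The sequences just upstream of 3 Ink4 genes are shown because these genes differed in opposite directions between the arrays: Cdkn2b and Cdkn2c were lower and Cdkn2d was higher with FGF18. Each is the 250 bases before the most upstream annotated start in RefSeq (build GRCm38.p6, 5′ to 3′ on the minus strand). Capitals mark a CRE (TGACGTCA) in Cdkn2b and GC boxes (GGGCGG or CCGCCC) in the other genes. The windows are chr4:89311033-89311282 for Cdkn2b, chr4:109666757-109667006 for Cdkn2c and chr9:21291210-21291459 for Cdkn2d.
Cdkn2b: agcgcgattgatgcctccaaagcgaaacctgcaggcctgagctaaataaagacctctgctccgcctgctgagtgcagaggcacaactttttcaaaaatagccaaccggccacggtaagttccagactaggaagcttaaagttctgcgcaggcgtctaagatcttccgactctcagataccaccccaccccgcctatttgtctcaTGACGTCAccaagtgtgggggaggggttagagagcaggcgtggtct
Cdkn2c: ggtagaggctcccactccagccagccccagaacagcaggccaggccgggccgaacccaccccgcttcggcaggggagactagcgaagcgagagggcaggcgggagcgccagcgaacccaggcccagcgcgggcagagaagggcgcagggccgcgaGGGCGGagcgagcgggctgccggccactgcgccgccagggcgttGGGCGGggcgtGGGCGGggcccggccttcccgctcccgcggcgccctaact
Cdkn2d: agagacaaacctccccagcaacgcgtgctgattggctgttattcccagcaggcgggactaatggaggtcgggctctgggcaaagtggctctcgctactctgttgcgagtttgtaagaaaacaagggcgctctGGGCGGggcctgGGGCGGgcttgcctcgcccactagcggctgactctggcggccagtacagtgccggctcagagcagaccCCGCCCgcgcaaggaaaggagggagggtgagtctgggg

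The Cdkn2b window held the CRE, a motif found in 1.55% of all 32851 promoter windows, and no GC box. Its G and C content was 53.6%. The Cdkn2c and Cdkn2d windows each held 3 GC boxes, a motif present in 32.7% of all windows, and their G and C content was 77.2% and 63.6%. GC boxes occurred in 6 of the 10 windows available for the genes described here, also in Ccnd3, Cdkn1b and Cdkn2a. In the printed windows the lower pair did not share a searched motif, and Cdkn2c carried the same motif as Cdkn2d. The other Cdkn2c window, at a start further downstream, held none of the searched motifs. A link between these motifs and the differences was not tested. Neither form of the E2F site searched (TTCGCGC and TTGGCGC, in 1.28% and 1.97% of windows) nor the E-box (CACGTG, in 6.02%) occurred in any of the 10 windows available for 7 of the genes. The CHR element (TTTGAA, in 5252 windows) occurred once each in Cdkn2b and Rbl2, and the CCAAT box (CCAAT, in 33.8%) in 1 Ccnd3 window, in Cdkn1b and in Cdkn2d. All motifs were searched on both strands, and no match in the printed windows overlapped another. Ccnd1, Ccnd2 and Rb1 had no window in the table.

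Values are RMA intensities on a linear scale. A difference is the FGF18 value minus the saline value, both as log2(intensity + 1), and a fold is 2 to the power of that difference, which understates the change of dim genes. With 1 array per group there is no spread between replicates and no test, so every difference compares these 2 arrays only. The background level of an array is the 95th percentile of its 1390 olfactory and vomeronasal receptor genes, which are not expected in skin. It was 15.3 on the FGF18 array and 17.6 on the saline array. All 10 genes exceeded it on both arrays, as did 10453 of the 22180 genes. Counts are given past a difference of 0.32 in either direction, a descriptive threshold with no error rate.

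**Figure D1:**
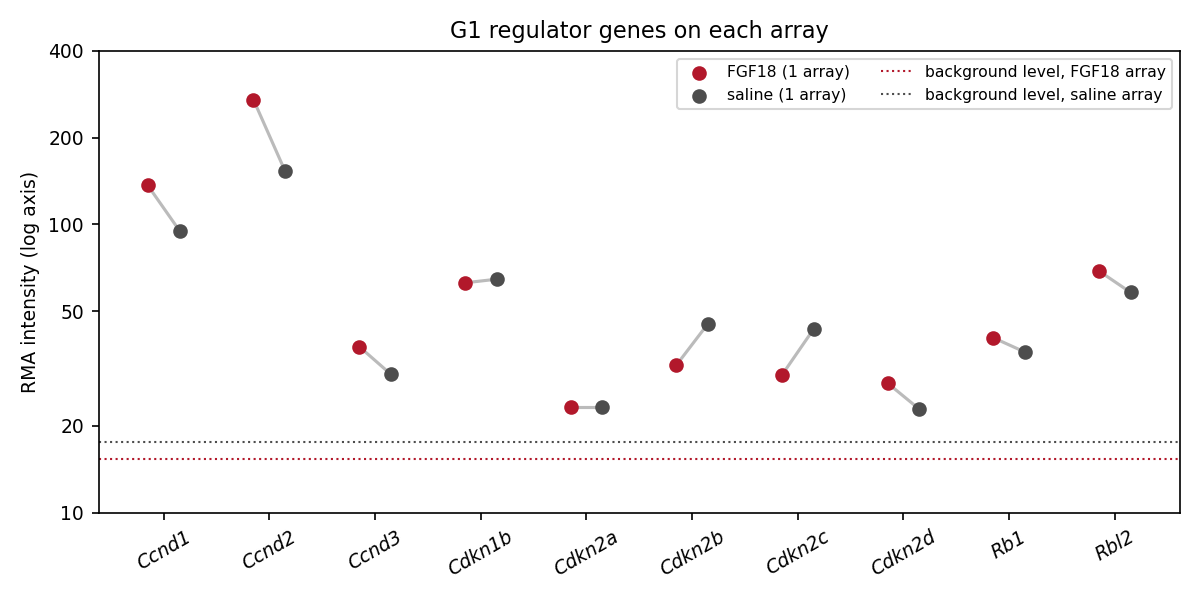
RMA intensity (log axis) of the 10 genes, with the FGF18 array left of the saline array for each gene and 1 array per group. Dotted lines are the background levels of 15.3 (FGF18) and 17.6 (saline), and every gene lies above them. Slopes are to be read within a gene, since different probes are not on a common scale.

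All 3 D cyclin genes were higher on the FGF18 array. Ccnd2, the D cyclin gene with the widest gap (transcript cluster 17471222), read 270 in FGF18 skin and 153 in saline skin. This is 1.77-fold higher, a difference of 0.82, and 0.631% of all genes had a difference at least as high. Ccnd1, a target of growth factor and Wnt signals (cluster 17498502), read 136 in FGF18 skin and 95.03 in saline skin. The fold was 1.43 and the difference 0.52. Ccnd3, the D cyclin often linked to differentiating tissues (cluster 17338269), read 37.7 in FGF18 skin and 30.2 in saline skin. Its difference of 0.31 corresponds to 1.24-fold and lies just under the threshold. Only Ccnd2 of the 10 genes lay outside the central 95% of differences among genes above background, which ran from -0.77 to 0.62. The differences of Ccnd2 and Ccnd3 were 0.51 apart on the log2 scale, and those of Ccnd2 and Ccnd1 were 0.30 apart.

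The Ink4 genes did not differ in 1 direction. Cdkn2c, which encodes p18 (cluster 17428217), read 29.97 in FGF18 skin and 43.3 in saline skin, a difference of -0.52 or 1.43-fold lower. Cdkn2b, which encodes p15, an inhibitor induced by TGF-beta in epithelial cells (cluster 17427155), read 32.4 in FGF18 skin and 45.2 in saline skin. Its difference was -0.47, or 1.38-fold lower. Cdkn2d, which encodes the p19 protein of the Ink4 family (cluster 17524698), was on the other side, at 28.1 in FGF18 skin and 22.8 in saline skin. Its difference of 0.29 (1.22-fold higher) did not reach the threshold, and it stood 0.80 above that of Cdkn2c and 0.76 above that of Cdkn2b. Cdkn2a, whose locus encodes both p16 and Arf, read 23.2 on both arrays (cluster 17427147), as the deposited values were identical. Such equality was found for 2026 clusters, or 4.90% of the table. Cdkn2a and Cdkn2b are neighbours with no protein-coding gene between them, so adjacent genes gave an equal and a lower value. The cluster of Cdkn2a is single, and p16 and Arf transcripts were not resolved.

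Cdkn1b, whose product p27 holds cells in quiescence, was near equal, at 62.7 in FGF18 skin and 64.5 in saline skin, with a difference of -0.04 (cluster 17463718). p27 is controlled largely by protein turnover, which arrays do not measure.

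The pocket protein genes were slightly higher. Rbl2, encoding p130, the pocket protein that prevails in resting cells (cluster 17503756), read 68.9 in FGF18 skin and 58.0 in saline skin, a difference of 0.24. Rb1, the retinoblastoma gene, has 2 clusters of its own that disagreed. The bright cluster 17308570 read 336 in FGF18 skin and 255 in saline skin, a difference of 0.40 or 1.32-fold higher. The dim cluster 17308568 read 4.09 in FGF18 skin and 4.36 in saline skin, both below background. Their average on the log2 scale gives a difference of 0.16, which the dim cluster pulls down. Lpar6, a lysophosphatidic acid receptor gene, lies inside Rb1, and 2 further clusters are annotated to both genes. They read 91.1 and 108 in FGF18 skin, against 65.1 and 88.4 in saline skin, with differences of 0.48 and 0.29. They cannot be assigned to either gene.

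**Figure D2:**
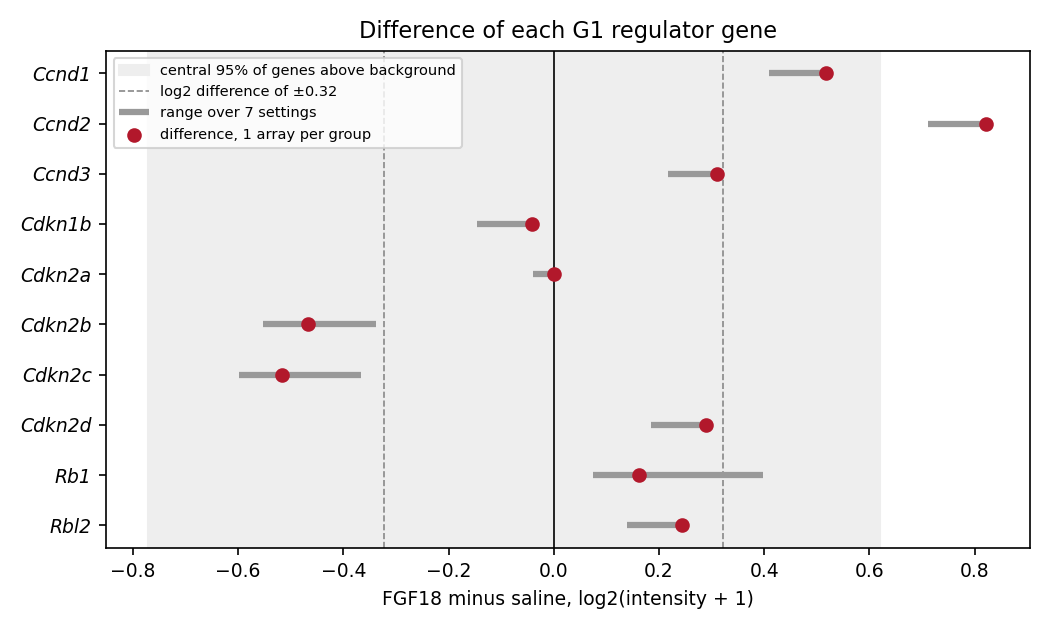
Difference of each gene (points, FGF18 minus saline, log2(intensity + 1), 1 array per group), with bars for the range over 7 processing settings, dashed lines at differences of 0.32 and -0.32 and a grey band for the central 95% of genes above background. Ccnd1 and Ccnd2 lie right of the upper line and Cdkn2b and Cdkn2c left of the lower line in each of these settings, while Rb1 has the widest bar, from 0.08 to 0.40.

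Counted together, 6 of the 10 genes were higher, 3 lower and 1 equal, and the median difference was 0.20. Among genes above background 58.2% were higher and 39.1% lower, and the median was 0.07. Among all named genes 49.5% were higher and 45.5% lower, and the median was 0.00. Past the threshold of 0.32, 2 genes were higher and 2 were lower, beside 16.4% higher and 11.1% lower among genes above background and 12.8% and 13.4% among all named genes. These counts are small and the higher share is near the background, so the 10 genes as a set did not stand apart in number. At 1.5-fold, 1 gene (Ccnd2) was higher and 0 were lower, beside 3.16% higher and 4.29% lower among genes above background and 2.61% and 4.15% among all named genes. At 2-fold there was 0 of 10 either way, beside 0.287% higher and 1.53% lower among genes above background and 0.257% and 1.06% among all named genes.

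Cdk4 and Cdk6, the kinase partners of the D cyclins, were both higher, Cdk6 only slightly. Cdk4, the kinase subunit activated by D cyclins, read 151 in FGF18 skin and 92.1 in saline skin, 1.63-fold higher (difference 0.71). Cdk6, the alternative kinase, read 37.8 in FGF18 skin and 34.0 in saline skin, a difference of 0.15. Cdk2, the kinase of cyclin E, was at 0.12. Ccne1, a cyclin E gene, was at 0.35, with 30.2 in FGF18 skin and 23.5 in saline skin. A difference at least as high was found in 1.28% of all genes for Cdk4, 30.5% for Cdk6, 34.8% for Cdk2 and 11.3% for Ccne1. Cdc25a, whose phosphatase activates Cdk2, read 21.7 in FGF18 skin and 12.7 in saline skin, below background, so no fold is given. In this list of G1 kinases and E cyclins all 5 measured genes were higher, and the median difference was 0.35. Past 0.32 there were 3 of them (Cdk4, Ccne1 and the dim Cdc25a). Beside this and the later lists, 58.2% of genes above background were higher and 16.4% were higher past 0.32. Among all named genes these shares were 49.5% and 12.8%. Ccne2, without a cluster of its own, was not analysed here.

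Of the remaining inhibitors and the third pocket protein, none was higher past 0.32. Cdkn1a, the p53 target encoding p21, read 227 in FGF18 skin and 193 in saline skin, a difference of 0.23. Cdkn1c, which encodes p57, read 26.6 in FGF18 skin and 33.7 in saline skin with a difference of -0.33, past the threshold. Rbl1, encoding p107, the pocket protein more abundant in cycling cells, had a difference of 0.08. The median of these 3 genes was 0.08.

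The E2F and DP factors, many of which the pocket proteins bind, were mostly higher. Of 10 genes 7 were higher, 2 were lower and 1 was equal, and 5 passed the threshold upward and 0 downward, with a median difference of 0.29. E2f6, a repressor that does not bind pocket proteins, was highest at 0.58, with 42.5 in FGF18 skin and 28.2 in saline skin. E2f4 and E2f5, the partners of p130 in resting cells, were at 0.46 and 0.35. The activator E2f3 was at 0.48 and the DP subunit gene Tfdp2 at 0.49. E2f1, another activator, read 17.2 in FGF18 skin and 15.5 in saline skin, below background on the saline array. By contrast, the MuvB complex, which p130 joins to silence cell cycle genes, and its other partners gave 8 genes, 4 higher and 4 lower. None was past the threshold, and the median was -0.01. Mybl2, counted as lower, was below background on both arrays.

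Genes of D cyclin and p27 turnover were higher in all 8 measured cases, with a median of 0.20. Beside this count, 58.2% of genes above background and 49.5% of all named genes were higher. Cul1, the scaffold of the ubiquitin ligases that mark p27 for destruction, was at 0.53 and Fbxo31, an F-box gene of cyclin D1 destruction, at 0.41. The other 6 were not past the threshold, among them Fbxo4, which was below background on the saline array. Rbx1 was not analysed here. With a pseudocount of 16, and also with a loess trend subtracted, 1 turnover gene in place of 2 was past the threshold. Of 16 regulators upstream of the D cyclin, Ink4 and p27 genes, 12 were higher and 4 lower, 7 and 1 of them past the threshold, and the median was 0.17. Lef1, the nuclear partner of beta-catenin, read 169 in FGF18 skin and 97.3 in saline skin, a difference of 0.79. Ctnnb1, the beta-catenin gene, was at 0.42 and Mycn at 0.32. Genes of the TGF-beta pathway, which induces Cdkn2b, were Smad4 at 0.55, Smad3 at 0.36 and the ligand Tgfb1 at 0.36. Tgfb2, the other ligand gene listed, read 15.3 in FGF18 skin and 14.8 in saline skin, below background on the saline array. Cdkn2b itself was lower. Among the FoxO genes, whose products activate Cdkn1b, Foxo4 was at 0.48, Foxo1 at 0.01 and Foxo3 at -0.18, beside near-equal Cdkn1b. Ets2 was the 1 gene lower past the threshold, at 128 in FGF18 skin and 191 in saline skin (difference -0.58).

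Downstream genes gave a mixed picture. Of 13 replication genes that respond to E2F, 9 were higher and 4 lower, 3 and 0 of them past the threshold, and the median was 0.19. The helicase subunit gene Mcm7 was at 0.48, the licensing factor gene Cdt1 at 0.41 and the sliding clamp gene Pcna at 0.37. Of 11 genes of G2 and mitosis 4 were higher, 6 lower and 1 equal, with 1 past the threshold each way and a median of -0.18. That median was -0.03 with clusters of several symbols kept and -0.11 with a pseudocount of 16, and the mean was -0.06. Ccna2, the cyclin of S phase and G2, was at 0.36, Mki67, the proliferation marker, just under the threshold at 0.32 (343 in FGF18 skin and 275 in saline skin) and the mitotic kinase gene Cdk1 at -0.40. Ccnb1, without a cluster of its own, was not analysed here. Over all 8 lists, which hold 74 measured genes, 51 were higher and 21 lower, 21 and 3 of them past 0.32, and none reached 2-fold. The lists were read against the same shares of all genes as above and received no test.

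**Figure D3:**
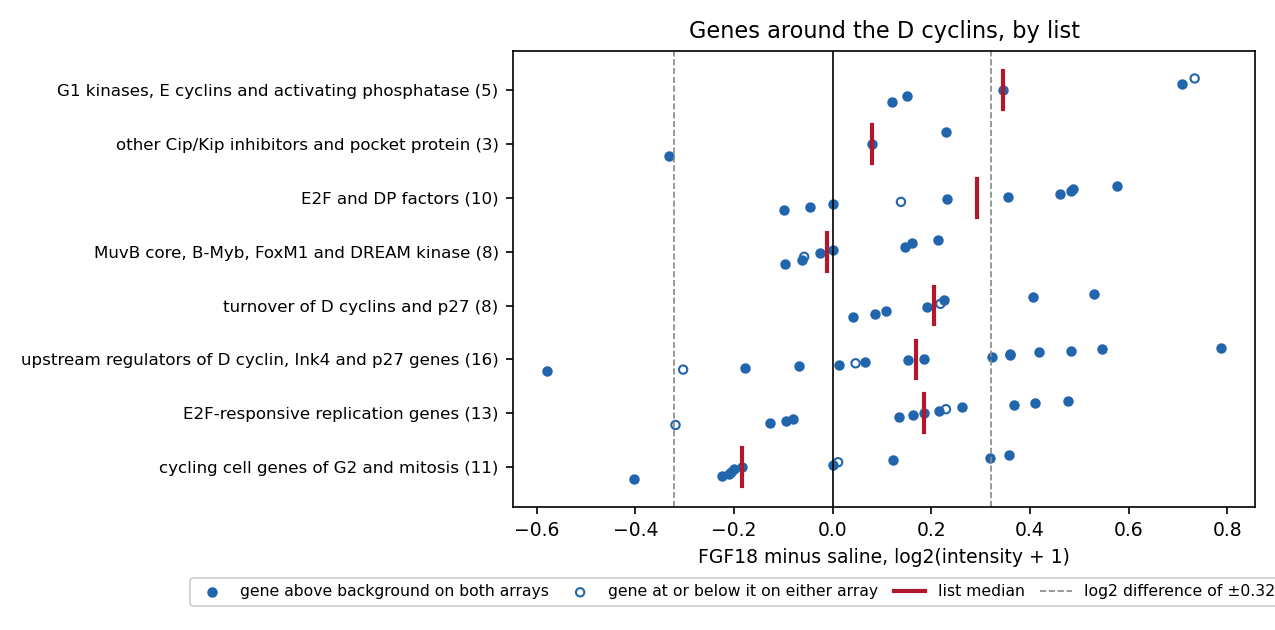
Differences (FGF18 minus saline, log2(intensity + 1), 1 array per group) of the genes in the 8 lists around the D cyclins, with the number measured in brackets. Filled points are genes above background on both arrays, open points are not, red ticks are list medians and dashed lines mark 0.32 and -0.32. The G1 kinase list has its median at 0.35 and the G2 and mitosis list at -0.18 (-0.03 with clusters of several symbols kept).

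The skin on the 2 arrays also differed in the markers of its cell layers, and in whole skin fewer cells of a type and less RNA per cell cannot be told apart. Genes of differentiated keratinocytes were lower in 13 of 13 cases, with a median difference of -1.95 and summed intensities of 5356 in FGF18 skin and 20481 in saline skin. Basal keratinocyte genes were higher in 4 of 5 cases, with a median of 0.14 and sums of 801 in FGF18 skin and 971 in saline skin. The gene that was lower, Krt14, read 328 in FGF18 skin and 575 in saline skin, a difference of -0.81. Genes of the inner root sheath, which moulds the growing hair, were higher in 8 of 9 cases, with a median of 0.96 and sums of 6267 in FGF18 skin and 3176 in saline skin. Hair shaft keratins were higher in 10 of 11 cases, with sums of 1117 in FGF18 skin and 740 in saline skin. Hair matrix genes, from the dividing cells of the bulb, were higher in 6 of 6 cases, with a median of 0.67. Their sums were 436 in FGF18 skin and 270 in saline skin. Among them, Shh was below background on both arrays. The hair matrix list shares Lef1 with the upstream regulators. Follicle stem cell genes were higher in 7 of 9 cases (sums of 870 in FGF18 skin and 707 in saline skin). Most of those sums was Krt15, at 598 in FGF18 skin and 453 in saline skin, while Cd34 and Nfatc1 were lower (-0.23 and -0.24). Dermal papilla genes were higher in 7 of 9 cases, with sums of 656 in FGF18 skin and 467 in saline skin. Melanocyte genes were higher in 7 of 7, with sums of 1063 in FGF18 skin and 763 in saline skin. Krt36, Lgr5 and Fgf10, counted as higher, were below background on the saline array, and Prom1, counted as lower, on both. Beside these counts, 58.2% of genes above background were higher and 39.1% lower. No marker was at 0, since RMA gives none, and every measured keratinocyte and inner root sheath marker was above background on both arrays. The share of these cell layers in the differences of the D cyclin and Ink4 genes was not tested.

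Markers of the other cell types were mixed in direction, apart from macrophages. Sums in FGF18 skin and saline skin were 1032 and 1132 for fibroblasts (3 of 8 higher), 5271 and 5784 for skeletal muscle (3 of 10), 767 and 585 for adipocytes (3 of 8), and 696 and 769 for sebaceous glands (3 of 7). In FGF18 skin and saline skin they were 250 and 195 for macrophages (8 of 9 higher) and 103 and 109 for endothelium (4 of 7). Of these, 3 macrophage genes and 4 endothelial genes were below background on both arrays. So was 1 gene each of the fibroblast, adipocyte and sebaceous gland lists. Those of the fibroblast and sebaceous gland lists were counted as higher. T cell genes summed to 81.4 in FGF18 skin and 82.1 in saline skin (3 of 6 higher), with 4 genes below background on both arrays. Neutrophil genes summed to 71.5 in FGF18 skin and 65.2 in saline skin (4 of 7 higher), and all 7 were below background on both arrays.

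**Figure D4:**
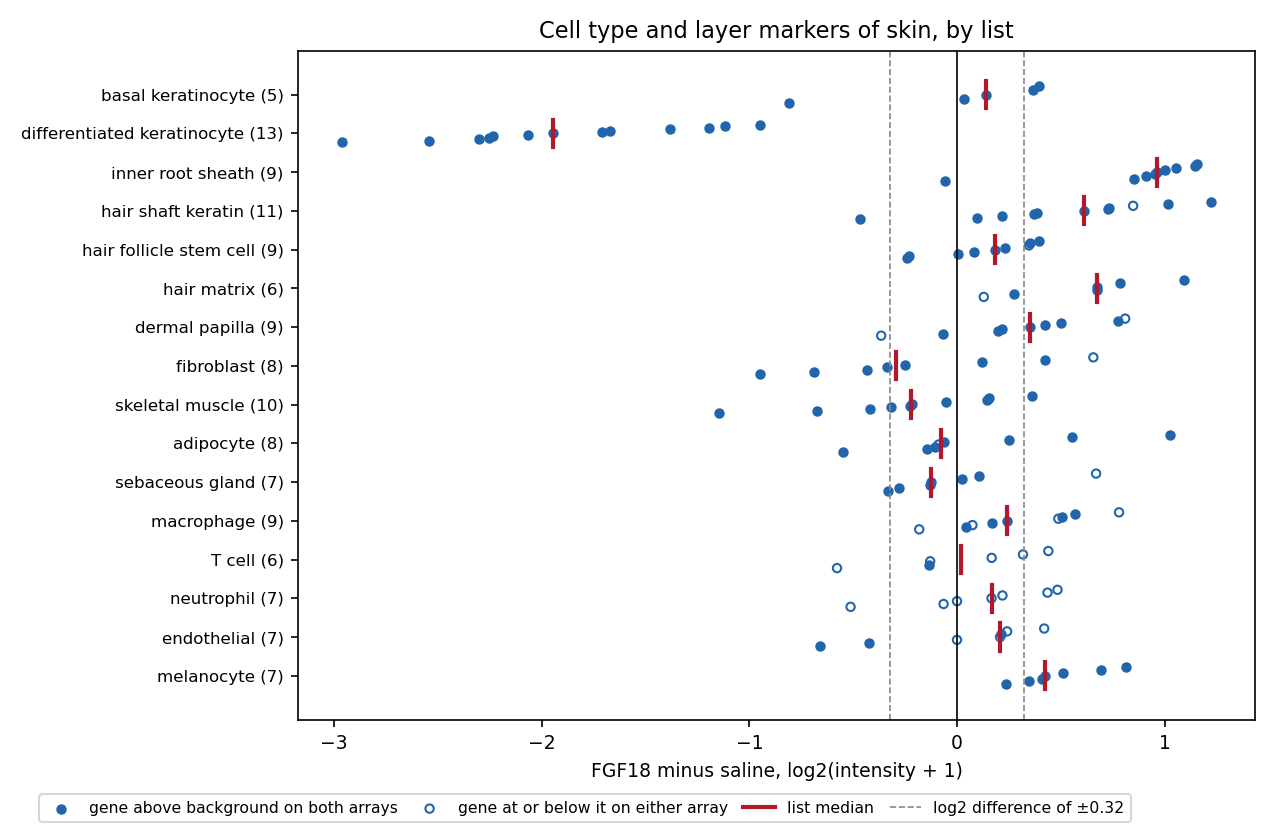
Differences (FGF18 minus saline, log2(intensity + 1), 1 array per group) of marker genes for 16 cell types and layers of skin, with the number measured in brackets. Filled points are genes above background on both arrays, open points are not, and red ticks are list medians. All 13 differentiated keratinocyte genes lie left of 0, while the inner root sheath median is 0.96.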

How the data were processed

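RNA of 1 FGF18 sample and 1 saline sample, as the labels name them, was hybridised to Affymetrix Mouse Gene ST arrays. The deposited values are intensities that the authors made with Affymetrix Expression Console and RMA, per the submitters' processing notes. RMA corrects background, normalises arrays and summarises the probes of each transcript cluster. Their versions were not stated. The scale was judged linear because values reached 11532 for FGF18 and 11488 for saline.

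Of 41345 clusters, 23521 had 1 symbol in the platform annotation, 1814 had several and 16010 had none. Clusters with 1 symbol were used as log2(intensity + 1) and averaged per symbol. Of them 23328 matched the RefSeq gene table (GRCm38.p6) by Entrez identifier, with the same symbol. No test was possible with 1 array per group, and the number of arrays limits the precision. Over 284 symbols with several bright clusters, the standard deviation of the difference between clusters of a symbol was 0.22, which covers disagreement between probe sets and not between animals.

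The genes, lists and the threshold of 0.32 (log2) were chosen with earlier results of these data known. Named genes are the 10 regulators, list genes past that threshold and above background on both arrays, and a fixed set of G1 genes. Cdc25a, Foxo1, Foxo3, Tgfb2, Fbxo4 and Mybl2 were named after their values were seen. So were the markers Krt14, Shh, Krt15, Cd34, Nfatc1, Krt36, Lgr5, Fgf10 and Prom1. With 2 arrays no gene can be ranked by likeness of pattern. Alternatives were a pseudocount of 16 or none, the brightest cluster, clusters with several symbols, centring, a loess trend (span 0.3), a filter on dim genes, 1.5-fold, list means, and the array median as the background level. Calculations used Python 3.11.15, pandas 2.3.3 and statsmodels 0.14.6 and were tested on simulated data.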

Additional observations from a re-analysis of the deposited data

How the results depend on the processing

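Over 6 alternatives for values, Ccnd1 stayed between 0.41 and 0.52 on the log2 scale, Ccnd2 between 0.71 and 0.83, Cdkn2b between -0.55 and -0.34 and Cdkn2c between -0.60 and -0.37, so each kept its direction and stayed past 0.32. No called gene changed sign. Rb1 moved by more than the disagreement between clusters in 1 alternative, to 0.40 with its brightest cluster, which by construction leaves out the dim one, and with that it passed the threshold. At 1.5-fold, 1 gene was higher and 0 lower. The 8 list medians moved by less than the disagreement between clusters under each alternative tried. That disagreement, 0.22, is larger in size than most of these medians, so a median could fall to 0 and still count as unmoved. With the trend subtracted, every list median was lower. The change was from 0.17 to 0.06 for upstream regulators, 0.19 to 0.08 for replication genes and 0.20 to 0.12 for turnover genes. The G2 and mitosis median ran from -0.22 to -0.03. Of the medians near 0, 2 changed sign: the MuvB list ran from -0.06 to 0.03 and the list of Cip/Kip inhibitors and Rbl1 from -0.02 to 0.08. Cdkn2a, equal as deposited, was at -0.04 with the trend subtracted. Of 112 list counts under alternatives, 11 moved by over 1.5 times or changed to or from 0. The upstream regulators had 3 genes higher past the threshold, in place of 7, with a pseudocount of 16 and also with the trend subtracted. With the array median as background level, all 10 genes stayed above background. No paired analysis was possible because each group has 1 array. The limits are 1 array per group, unstated radiation, heparin and depilation for saline, and dim values. Cdkn2a and Cdkn2d in saline skin were at most 1.32 times background.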

Other observations

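Other genes with a cyclin or Cdk symbol, the D cyclins left out, had differences from -0.40 (Cdk1) to 0.71 (Cdk4). Among genes above background 58.2% were higher and 39.1% lower, 16.4% and 11.1% past a difference of 0.32, and among all named genes 49.5% and 45.5%, 12.8% and 13.4% past it. Of 19 cyclin genes 16 were higher and 3 lower, 5 and 0 of them past 0.32, with a median difference of 0.13. Of 19 Cdk genes 12 were higher and 7 lower, 2 and 1 past that threshold, with a median of 0.12, so the Cdk counts were near those shares. These sets include Ccna2, Ccnb2, Ccne1, Cdk1, Cdk2, Cdk4 and Cdk6. Among genes with roles in transcription, chosen after their values were seen, Ccnk, the cyclin of Cdk12, read 94.97 in FGF18 skin and 70.5 in saline skin (difference 0.43). Ccnt1, the cyclin of Cdk9, read 43.2 in FGF18 skin and 32.9 in saline skin (0.39). Their kinases Cdk12 and Cdk9 were near equal, with differences of -0.08 and -0.08. Cdk7, which activates other Cdks, was at -0.32, just short of the threshold, with 34.9 in FGF18 skin and 43.7 in saline skin. Its cyclin Ccnh was at 0.13.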
